A study of Homo sapiens with 27 samples.

Results

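Clone A is one of the ARNT-knockout clones that the study derived from Panc1, an established human pancreatic ductal adenocarcinoma cell line, with CRISPR-Cas9. Its 3 polyA RNA-seq libraries in hypoxia (labelled ARNT KO Clone A; 1% O2 for 48 hours in regular medium, which is DMEM with FBS and P/S) were set against the 3 libraries of the parental Panc1 cells kept the same way. These are 6 of the 27 libraries of the series, and they were taken by genotype, oxygen and medium as the labels give them. All 21487 genes of the table were considered and 13943 of them were tested. The comparison asks how the hypoxic transcriptome of the clone labelled as an ARNT knockout differs from that of the line it came from. Clone A and parental cells in normoxia (20% O2, the same medium and time, 3 libraries each) show which differences were there without hypoxia, and clone B in hypoxia (3 libraries), a separate knockout clone, stands beside clone A. Clone A is a single clone, so what the loss of ARNT brings and what this clone carries for other reasons cannot be told apart within this comparison. Whether the libraries of a group came from separate cultures is not stated, so the p-values measure the spread between these libraries.

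ARNT, also called HIF1B, is the subunit that HIF1A and EPAS1 (HIF2A) must bind to form the hypoxia-inducible transcription factors. In well-oxygenated cells prolyl hydroxylases of the EGLN family mark the alpha subunits for degradation through VHL; in low oxygen the alpha subunits last, pair with ARNT and bind DNA at sites with the core ACGTG or GCGTG. Their targets carry glucose into glycolysis, divert pyruvate from the mitochondria, and encode angiogenic and acid-handling proteins. ARNT is also the partner of AHR, the receptor for aryl hydrocarbons.

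One library stood apart. Clone A replicate 1 in hypoxia differed from replicates 2 and 3 with a chi-square per gene of 43.7 and 42.0, against 5.29 between replicates 2 and 3 and 6.33 to 9.42 between pairs of the parental libraries. In it 23 of 23 mitosis genes, 29 of 29 DNA replication genes and 22 of 22 ribosome biogenesis genes were lower than the mean of the other two, and 13 of 13 mitochondrial DNA transcripts were higher. The main results that rest on it are given with and without it. The libraries held 29414653, 30750998 and 33339971 counts in clone A and 38341713, 38247150 and 34132952 in parental cells. Between 15246 and 15307 genes had a count in the clone A libraries, and between 15616 and 15662 in the parental ones. Levels below are in CPM, a gene's count relative to its library's total, that total corrected with TMM factors; they are not divided by gene length, so levels are compared between libraries and not between genes. A lower level can mean fewer cells that express a gene or less of its RNA per cell, which cannot be told apart in these bulk libraries.

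The transcript of ARNT itself gave 68.3, 68.2 and 68.8 CPM in clone A, against 74.1, 67.5 and 72.6 CPM in parental cells in hypoxia. The groups overlapped, and the log2 difference was -0.06 (SE 0.09), edgeR adjusted p = 0.61. A transcript count does not check a knockout made by small cuts in the gene. All 8 markers fixed for ductal epithelial cancer cells were detected in both groups. In clone A 1 was higher and 6 were lower, beside 20.5% and 20.9% of all tested genes. Of the 26 markers of fibroblasts, endothelial cells, blood cells and acinar or endocrine pancreas, 15 reached the level needed for a test. Of the 15, 2 rose (COL1A1 and CD68), beside 20.5% of all tested genes, and the rest were not called. CD68 shares 85.8% of its exon length with another gene. The summed level of the 26 markers was 256, 322 and 313 CPM in clone A, against 209, 202 and 227 CPM in parental cells. The blood cell marker PTPRC and the endothelial marker CDH5 were too low to be tested.

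In hypoxia the hypoxia program of clone A was far below that of the parental cells, its cell division genes were higher, and its antigen presentation and interferon genes were lower; in the collagen, laminin and integrin, and epithelial lists more members fell than rose. Of the 13943 genes tested, 5770 (41.4%) were called by edgeR's quasi-likelihood test at a Benjamini-Hochberg adjusted p under 0.05: 2859 (20.5%) were higher in clone A and 2911 (20.9%) were lower. The falls were larger than the rises. Among the called genes, 1430 fell (10.3% of tested genes) and 708 rose (5.08%) by at least 2-fold, and 129 fell and 18 rose by at least 16-fold. The median log2 difference over all tested genes was 0.03; TMM scaling centres these values, so a general shift in RNA amount could not be seen here. Without clone A replicate 1 the number called was 5519, and 5070 genes were called both ways.

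Much of the difference was already there in normoxia. Of the genes called in hypoxia, 3117 were also called with the same sign in normoxia, which is 54.0% of the 5770 hypoxia calls and 70.7% of the 4408 normoxia calls (31.6% of tested genes), and 73 were called with the opposite sign. A gene missing from the normoxia calls is not thereby shown to differ between the oxygen levels. The test of that difference, the hypoxia response of clone A minus that of the parental cells (called the interaction below), called 869 genes (6.23%), 306 (2.19%) with a positive and 563 (4.04%) with a negative value. Of these, 424 were also lower in clone A in hypoxia; 249 of the 424 were not called in normoxia, 120 were lower there too, and 55 were higher there. Another 233 were higher in clone A in hypoxia with a positive interaction. The interaction count depended on the libraries fitted together: it was 2656 with the 12 libraries compared alone and 2952 without the 9 libraries in hypoxic TIFM.

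**Figure D1:**
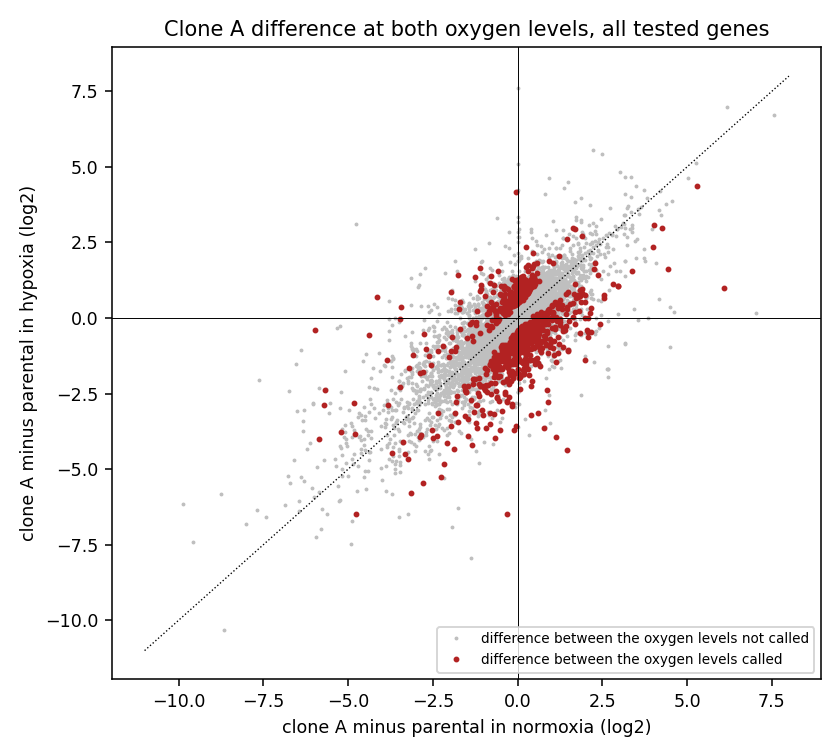
Each point is 1 of 13943 tested genes; the x axis is the log2 difference clone A minus parental in normoxia and the y axis the same difference in hypoxia (3 libraries per group). Most points lie along the dotted line of equal differences, and the 869 genes in red, whose difference itself differed between the oxygen levels, lie off it, more of them below (563) than above (306).

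Genes of the HIF pathway moved in both directions. HIF1A, the oxygen-labile subunit of HIF1, gave 235, 197 and 209.7 CPM in clone A, against 128, 125 and 117 CPM in parental cells in hypoxia; every clone A library was above every parental one, with a log2 difference of 0.79 (SE 0.16), edgeR adjusted p = 2.5e-04. In normoxia it gave 129.9, 136 and 142 CPM in clone A and 204, 176 and 210.4 CPM in parental cells, the reverse order, and the interaction was 1.33 (SE 0.23). EPAS1, the HIF2 alpha subunit, gave 275, 269 and 279 CPM in clone A, against 526, 516 and 478 CPM in parental cells in hypoxia, a log2 difference of -0.88 (SE 0.14). Its parental level in normoxia was 244, 267 and 240.1 CPM, below that in hypoxia, and its clone A level was about the same at both oxygen levels, at 298, 293 and 283 CPM in normoxia. ARNT2, a close relative of ARNT that can also pair with alpha subunits, was nearly absent from clone A, with 0.290, 0.221 and 0.446 CPM in clone A, against 13.5, 14.1 and 13.7 CPM in parental cells and a log2 difference of -5.41 (SE 0.27). It was as low in normoxia (log2 -6.29), and it lies on chromosome 15, whose genes were lower in clone A as a whole. HIF3A, EGLN1, EGLN2 and AHRR were too low in the table to be tested.

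EGLN3, an oxygen-sensing prolyl hydroxylase and itself a HIF target, showed one of the largest falls of any gene. It gave 0.612, 0.410 and 0.357 CPM in clone A, against 41.9, 42.9 and 40.1 CPM in parental cells, a log2 difference of -6.50 (SE 0.22), edgeR adjusted p = 1.2e-17. In normoxia it gave 0.358, 0.417 and 0.311 CPM in clone A and 9.82, 9.48 and 10.5 CPM in parental cells, so the difference was present there too, at log2 -4.77, and was deeper in hypoxia by -1.72. VHL, which marks hydroxylated alpha subunits for degradation, was slightly higher in clone A (log2 0.37 in hypoxia and 0.42 in normoxia). HIF1AN, the asparaginyl hydroxylase that blocks HIF transcriptional activity, gave 225, 208 and 201 CPM in clone A, against 175, 170.5 and 170.1 CPM in parental cells; the groups did not overlap, but the gene missed the threshold (adjusted p = 0.053) and passed it under 5 of the alternatives tried.

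**Figure D2:**
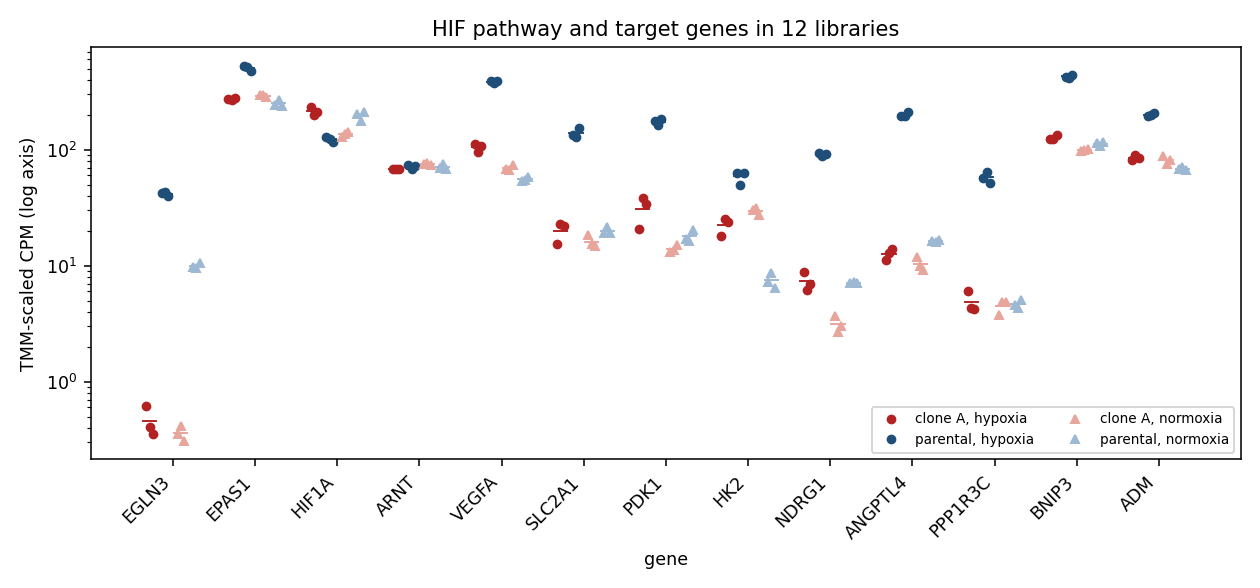
Levels of 13 HIF pathway and target genes (x axis) in TMM-scaled CPM on a log axis in clone A and parental cells, in hypoxia (circles) and normoxia (triangles); each point is a library and each short line a mean of 3. For most genes shown, among them EGLN3, EPAS1, VEGFA, SLC2A1, PDK1, HK2, ANGPTL4, PPP1R3C, BNIP3 and ADM, the parental hypoxia libraries stand above all other groups. The clone A libraries in hypoxia are below the parental hypoxia libraries for every gene shown except HIF1A and ARNT.

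HIF targets fell almost as a body. Of 39 tested members of the list of HIF targets outside glycolysis, 38 were lower in clone A in hypoxia and 1 was higher, with a median log2 of -1.37, against 20.9% lower and a median of 0.03 over all tested genes. In normoxia 13 were lower and 6 higher (15.8% and 15.9% over all tested genes) with a median of -0.07. A negative interaction was called for 33, against 4.04% of all tested genes. The list was made of known HIF targets, but its members and the comparison were chosen with earlier results of these data known. Summed over its 40 members, the list gave 3075, 2794 and 2965 CPM in clone A and 8585, 8273 and 8687 CPM in parental cells in hypoxia. In normoxia it gave 2510, 2422 and 2454 CPM in clone A and 2558, 2569 and 2590 CPM in parental cells. The clone A sums in hypoxia were thus above the normoxia sums of both genotypes and far below the parental sums in hypoxia.

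VEGFA, the main angiogenic growth factor, gave 112, 95.8 and 107 CPM in clone A, against 390.4, 376 and 392 CPM in parental cells, a log2 difference of -1.88 (SE 0.14), edgeR adjusted p = 2.7e-11. In normoxia it gave 68.1, 67.1 and 73.9 CPM in clone A and 53.97, 54.8 and 58.2 CPM in parental cells, with no call, and the interaction was -2.20 (SE 0.19). ADM, which encodes the vasodilator peptide adrenomedullin, gave 82.1, 89.6 and 84.7 CPM in clone A, against 196, 197 and 206 CPM in parental cells, a log2 difference of -1.23 (SE 0.14), with an interaction of -1.47. ANGPTL4, a secreted inhibitor of lipoprotein lipase, gave 11.2, 12.9 and 14.02 CPM in clone A, against 194, 196 and 209 CPM in parental cells; this was a log2 difference of -3.97 (SE 0.30), with -0.67 and no call in normoxia. NDRG1, a stress-responsive gene long used as a hypoxia marker, gave 8.89, 6.18 and 6.91 CPM in clone A, against 92.8, 88.03 and 91.8 CPM in parental cells, a log2 difference of -3.63 (SE 0.18), and was lower in normoxia as well (log2 -1.19). BNIP3, a receptor for the removal of mitochondria, gave 123, 123 and 133 CPM in clone A, against 422, 419 and 442 CPM in parental cells, a log2 difference of -1.76 (SE 0.09), edgeR adjusted p = 2.6e-14, and -0.18 with no call in normoxia. In none of these genes did the 3 clone A libraries overlap the 3 parental ones in hypoxia, which held for 61% of all tested genes.

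CA9, a carbonic anhydrase at the cell surface that handles acid and a widely used hypoxia marker, had 0 counts in all 3 clone A libraries and 109 counts over the parental ones, whose levels were 0.904, 1.08 and 0.843 CPM. Against a floor of 3 counts over the clone A group, CA9 was at least 30.4-fold lower; the gene shares 38.5% of its exon length with another gene on GENCODE v29, and bounds of this kind cover counting error only. STC1, the secreted hormone stanniocalcin-1, gave 0.0644, 0.252 and 0.327 CPM in clone A, against 6.33, 5.25 and 7.42 CPM in parental cells, a log2 difference of -4.84 (SE 0.36). CXCR4, a chemokine receptor, fell by a log2 of -3.20 in hypoxia and had 0.40 and no call in normoxia. P4HA1, a collagen prolyl hydroxylase, fell by a log2 of -1.49, and LOX, which crosslinks collagen, by -1.65. The member that rose was NDUFA4L2, a subunit-like protein of the respiratory chain with few counts in these libraries: it gave 1.58, 1.86 and 1.88 CPM in clone A, against 0.678, 1.01 and 0.843 CPM in parental cells, and was higher in clone A by a log2 of 2.96 in normoxia.

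Most tested genes of glucose uptake and glycolysis were lower in clone A in hypoxia, from transport to lactate. Of 23 members listed 21 were tested, and the aldolase ALDOC is listed at 0 in all libraries. Of 21 tested members 19 fell, against 20.9% of all tested genes, with a median log2 of -1.35. The other 2, PFKM (log2 -0.08) and ENO1 (log2 -0.13), were not called. In normoxia 4 were lower and 2 higher, beside 15.8% and 15.9% of all tested genes, with a median of 0.11. A negative interaction was called for 15, against 4.04% of all tested genes. Without clone A replicate 1, 18 were lower. SLC2A1, the glucose transporter GLUT1, gave 15.5, 22.9 and 21.8 CPM in clone A, against 134, 128 and 154 CPM in parental cells, a log2 difference of -2.79 (SE 0.16), edgeR adjusted p = 2.0e-13; in normoxia it gave 18.4, 15.3 and 14.7 CPM in clone A and 19.3, 21.5 and 19.3 CPM in parental cells. PDK1, the kinase that shuts pyruvate dehydrogenase, gave 20.5, 38.3 and 33.99 CPM in clone A, against 178, 162 and 184 CPM in parental cells, a log2 difference of -2.50 (SE 0.17), and -0.36 with no call in normoxia. PGK1, phosphoglycerate kinase, gave 587, 702 and 734 CPM in clone A, against 2940, 2887 and 2844 CPM in parental cells, and LDHA, which turns pyruvate into lactate, gave 1572, 1761 and 1847 CPM in clone A, against 5650, 6010 and 5556 CPM in parental cells. Their log2 differences were -2.10 and -1.73. The abundant enzyme gene GAPDH fell less, by a log2 of -1.03, and was not called in normoxia (-0.04). PFKFB4, which makes an activator of phosphofructokinase, gave 16.4, 16.8 and 16.6 CPM in clone A, against 109, 107 and 118 CPM in parental cells, a log2 difference of -2.74 (SE 0.17). PDK3, a sister kinase of PDK1 on the short arm of the X chromosome, gave 2.54, 1.70 and 1.55 CPM in clone A, against 40.2, 33.8 and 32.5 CPM in parental cells; its fall was nearly as large in normoxia (log2 -3.85), and the interaction was not called.

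HK2, the hexokinase that catalyses the first step of glycolysis in many tumors, changed sides with oxygen. In normoxia it gave 29.95, 31.4 and 27.6 CPM in clone A and 7.25, 8.69 and 6.45 CPM in parental cells, a log2 difference of 1.99, and in hypoxia 17.9, 25.4 and 24.02 CPM in clone A, against 62.9, 49.98 and 63.4 CPM in parental cells, a log2 difference of -1.39 (SE 0.16). The parental libraries in hypoxia stood far above those in normoxia, and the clone A libraries in hypoxia below theirs. The interaction, -3.38 (SE 0.24) with edgeR adjusted p = 9.2e-10, was among the 6 most negative of the genes at 5 CPM or more. The other 5 were PPP1R3C, ANGPTL4, GNG4, CEBPD and FAM13A. PPP1R3C, which targets protein phosphatase 1 to glycogen, gave 6.05, 4.35 and 4.26 CPM in clone A, against 56.95, 63.95 and 51.9 CPM in parental cells in hypoxia and 3.74, 4.88 and 4.83 CPM in clone A and 4.58, 4.30 and 5.09 CPM in parental cells in normoxia; the interaction was -3.51 (SE 0.32). FAM13A gave 3.96, 3.56 and 3.36 CPM in clone A, against 68.6, 68.5 and 64.9 CPM in parental cells, a log2 difference of -4.21 (SE 0.17), and was lower in normoxia too (-1.36). GNG4, a G protein gamma subunit, gave 0.773, 2.14 and 1.19 CPM in clone A, against 8.01, 6.49 and 6.77 CPM in parental cells, and CEBPD, a stress-responsive transcription factor, gave 0.837, 0.126 and 0.208 CPM in clone A, against 4.70, 5.18 and 5.43 CPM in parental cells. CEBPD was higher in clone A replicate 1 than in the other clone A libraries, and its log2 difference of -3.71 was -4.89 without that library.

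Promoter sequence is shown for 4 of these genes because they span the range of HIF core matches found. The sequences are the 250 bases before the gene start, from RefSeq on GRCh38.p14, 5′ to 3′ on the gene's strand, with every ACGTG or GCGTG and their reverse complements (CACGT and CACGC) in capitals. The letters CACGTG hold ACGTG on both strands and count as 2 overlapping matches.
PPP1R3C, chr10:91633072-91633321, minus strand, 4 matches: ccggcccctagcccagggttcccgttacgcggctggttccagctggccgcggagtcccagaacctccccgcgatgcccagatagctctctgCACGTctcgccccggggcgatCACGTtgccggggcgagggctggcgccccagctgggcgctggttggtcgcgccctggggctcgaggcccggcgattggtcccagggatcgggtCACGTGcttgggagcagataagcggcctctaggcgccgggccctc
BNIP3, chr10:131981924-131982173, minus strand, 6 matches: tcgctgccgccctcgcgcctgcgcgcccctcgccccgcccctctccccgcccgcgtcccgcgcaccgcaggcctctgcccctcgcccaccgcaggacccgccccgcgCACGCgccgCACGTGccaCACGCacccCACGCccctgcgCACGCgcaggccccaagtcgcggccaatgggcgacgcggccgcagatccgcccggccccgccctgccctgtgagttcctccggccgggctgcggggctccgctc
ANGPTL4, chr19:8363905-8364154, plus strand, 1 match: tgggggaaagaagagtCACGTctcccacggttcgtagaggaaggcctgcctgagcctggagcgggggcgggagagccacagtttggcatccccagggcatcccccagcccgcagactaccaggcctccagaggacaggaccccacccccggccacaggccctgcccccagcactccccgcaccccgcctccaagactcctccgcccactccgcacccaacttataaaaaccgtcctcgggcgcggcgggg
EGLN3, chr14:33951075-33951324, minus strand, 0 matches: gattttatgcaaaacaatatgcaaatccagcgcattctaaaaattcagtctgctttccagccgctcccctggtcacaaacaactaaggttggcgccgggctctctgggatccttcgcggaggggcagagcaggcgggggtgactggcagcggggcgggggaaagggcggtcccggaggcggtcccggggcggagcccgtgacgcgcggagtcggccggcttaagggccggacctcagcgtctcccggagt
At least 1 match stood in 23 of 28 such windows of the HIF target list (82.1%) and in 11 of 20 of the glycolysis list (55%), against 6122 of 10942 windows of all tested genes with an entry (55.9%, the first entry of each gene). Among genes lower in hypoxia with a negative interaction it was 61.0% of 328, and among genes lower in hypoxia without an interaction call 52.8% of 1902. These shares are descriptions: a match is not a binding site, and no match says only that these letters are not in this window.

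Of 9 tested AHR targets 6 were lower, against 20.9% of all tested genes, and 1 was higher, against 20.5% (LRAT, at 1.07 CPM or less in every library of both groups). CYP1B1, an oxidase of hydrocarbons and estrogens under AHR control, gave 33.8, 41.9 and 42.03 CPM in clone A, against 609, 604 and 567 CPM in parental cells, a log2 difference of -3.92 (SE 0.25), edgeR adjusted p = 2.2e-12. In clone B it was lower than in clone A, at 3.18, 6.72 and 3.75 CPM (clone B minus clone A, log2 -3.11). TIPARP, an ADP-ribosyltransferase that restrains AHR, gave 43.4, 40.2 and 46.4 CPM in clone A, against 138, 132 and 139 CPM in parental cells, a log2 difference of -1.65 (SE 0.10). The receptor AHR itself had few counts, at 2.09, 1.20 and 0.982 CPM in clone A, against 1.03, 1.21 and 1.26 CPM in parental cells, with no call. It shares 32.3% of its exon length with another gene, and few counts in this table are not read as low expression.

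Cell division genes were higher in clone A in hypoxia. Of 23 tested mitosis genes 19 rose, against 20.5% of all tested genes, and the other 4 were not called. The median log2 was 0.97. In normoxia 3 were lower, beside 15.8% of all tested genes, and the rest were not called. A positive interaction was called for 15, against 2.19% of all tested genes. The summed level was 6034, 8181 and 8411 CPM in clone A and 4266, 4200 and 4125 CPM in parental cells in hypoxia. In normoxia it was 6638, 6653 and 6611 CPM in clone A and 6643, 6670 and 6710 CPM in parental cells. The groups did not overlap in hypoxia and lay close together in normoxia. Clone A replicate 1 had the lowest sum of its group, and without it 19 again rose, with a median of 1.11, and 20 had a positive interaction. TOP2A, the topoisomerase that untangles replicated DNA, gave 869, 1232 and 1267 CPM in clone A, against 453, 423 and 437 CPM in parental cells, a log2 difference of 1.36 (SE 0.19), edgeR adjusted p = 2.6e-06, and 0.09 with no call in normoxia. MKI67, which encodes the proliferation marker Ki-67, gave 698, 956 and 931 CPM in clone A, against 392, 377 and 372 CPM in parental cells, a log2 difference of 1.18 (SE 0.21). The mitotic kinases PLK1, AURKA and CDK1 rose by log2 values of 1.05, 1.17 and 1.28. The motor CENPE, which attaches chromosomes to the spindle, had an interaction of 1.55 (SE 0.34). CCNB2, KIF23, ANLN and UBE2C, with log2 values of 0.05 to 0.17, were not called; the first pair lie on chromosome 15.

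DNA replication followed. Of 29 tested members 25 were higher and 1 lower, beside 20.5% and 20.9% of all tested genes, with a median log2 of 0.84. A positive interaction was called for 11, beside 2.19% of all tested genes, and for 19 without clone A replicate 1. In normoxia 11 were higher and 1 lower, beside 15.9% and 15.8%. The sums were 2185, 3266 and 3238 CPM in clone A and 1919, 1939 and 2020 CPM in parental cells in hypoxia, so that replicate 1 of clone A lay just above the parental libraries and the other two well above. PRIM1, the catalytic subunit of primase, gave 26.2, 37.3 and 39.8 CPM in clone A, against 13.1, 14.1 and 14.2 CPM in parental cells, a log2 difference of 1.32 (SE 0.13); 21.6% of its exon length is shared. CDC45, a part of the replicative helicase, gave 20.7, 37.2 and 33.3 CPM in clone A, against 12.2, 12.02 and 12.96 CPM in parental cells, a log2 difference of 1.30 (SE 0.17). PCNA, the sliding clamp of DNA polymerases, rose by a log2 of 0.84 and had 0.09 and no call in normoxia. POLA1, the catalytic subunit of polymerase alpha, was the member that fell (-0.55); it lies on the short arm of the X chromosome. RRM2 gave 277, 512 and 476 CPM in clone A, against 495, 494 and 526 CPM in parental cells and overlapped between the groups.

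**Figure D3:**
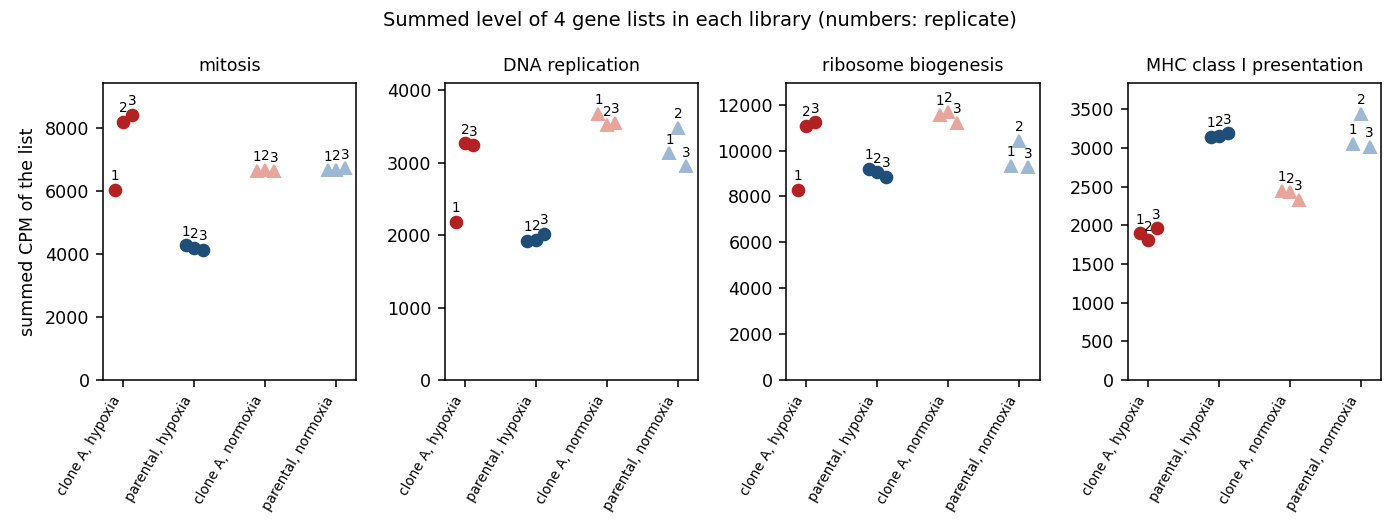
Summed TMM-scaled CPM (y axes, from 0) of 4 gene lists in each library of clone A and parental cells, in hypoxia (circles) and normoxia (triangles), with the replicate number above each point. Mitosis genes stand at 6034 to 8411 CPM in clone A and 4125 to 4266 CPM in parental cells in hypoxia; clone A replicate 1 is the lowest of its group in the 3 lists on the left, and MHC class I genes are lower in clone A at both oxygen levels.

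Ribosomal protein genes were modestly higher at both oxygen levels. In hypoxia 27 of 42 tested members rose and 1 fell, with a median log2 of 0.42, beside 20.5% and 20.9% of all tested genes. In normoxia 30 rose, beside 15.9%, and the other 12 were not called, with a median of 0.46. The sums were 21628, 20952 and 22712 CPM in clone A, against 16791, 18509 and 17969 CPM in parental cells. The number that rose was 20 without clone A replicate 1, 15 without clone A replicate 3 and 11 without parental replicate 1. The member that fell, RPLP1 (log2 -0.47), lies on chromosome 15 and was not called without clone A replicates 1 or 2 or parental replicates 2 or 3. Of 22 ribosome biogenesis genes 2 rose and 1 fell; without clone A replicate 1, 5 rose and RRS1, the member that fell, was not called, and 1 rose without clone A replicate 2, without clone A replicate 3, without parental replicate 1 and without parental replicate 3. Mitochondrial DNA transcripts, whose sum was highest in clone A replicate 1 among the 6 hypoxia libraries, were higher for 6 of 13, for 2 without that library and for 3 without parental replicate 1. Nuclear genes of the respiratory chain were higher for 11 of 33 and lower for 2, with 7 higher without clone A replicate 3 and 5 without parental replicate 1.

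Genes of the ATF4 amino acid response were higher in clone A at both oxygen levels and by less in hypoxia. In hypoxia 17 of 33 tested members rose and 4 fell with a median log2 of 0.41, beside 20.5% and 20.9% of all tested genes. In normoxia 26 rose and 1 fell with a median of 0.91, beside 15.9% and 15.8%. A negative interaction was called for 17 members, against 4.04% of all tested genes. ATF4, the transcription factor of the response, gave 366, 419.8 and 455 CPM in clone A, against 212, 211 and 226 CPM in parental cells in hypoxia, a log2 difference of 0.94 (SE 0.13), and 390.1, 387 and 387 CPM in clone A and 105, 115 and 104 CPM in parental cells in normoxia, a log2 difference of 1.85. PHGDH, which opens serine synthesis, gave 173, 189 and 195 CPM in clone A, against 91.8, 80.4 and 97.99 CPM in parental cells in hypoxia, a log2 difference of 1.04 (SE 0.14). In normoxia PHGDH gave 239, 226 and 222 CPM in clone A and 28.97, 34.9 and 23.99 CPM in parental cells, a log2 difference of 2.97. ASNS, asparagine synthetase, gave 443, 546 and 579.6 CPM in clone A, against 313, 279.8 and 338 CPM in parental cells in hypoxia and 603, 596 and 569 CPM in clone A and 96.9, 115 and 89.2 CPM in parental cells in normoxia, with an interaction of -1.80 (SE 0.18); 44.6% of its exon length is shared. For these 3 genes each parental library in hypoxia stood above each parental library in normoxia, so the smaller difference in hypoxia goes with a higher parental level. For PHGDH each clone A library in hypoxia was also below each clone A library in normoxia. For ATF4 and ASNS the clone A libraries overlapped between the oxygen levels. In clone B in hypoxia the same list had 2 higher and 6 lower, beside 16.9% and 19% of all tested genes. There ASNS gave 250.3, 261 and 265 CPM. VLDLR, a lipoprotein receptor on this list, was higher in clone A (log2 1.12) and lower in clone B (-0.89). SLC7A5, a transporter of large neutral amino acids, fell (log2 -0.80), as did CTH of cysteine synthesis (-0.68) and the stress cytokine GDF15 (-0.67; without clone A replicate 2 its edgeR adjusted p was 0.074).

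BCAT1, which starts the breakdown of branched-chain amino acids in the cytosol, was among the largest rises of any gene. It gave 461, 581 and 568 CPM in clone A, against 28.8, 22.6 and 26.1 CPM in parental cells, a log2 difference of 4.38 (SE 0.16), edgeR adjusted p = 5.0e-17, and 5.29 in normoxia. IDH2, the mitochondrial isocitrate dehydrogenase, gave 58.7, 70.8 and 64.5 CPM in clone A, against 358, 348 and 354 CPM in parental cells, a log2 difference of -2.45 (SE 0.14), with -1.52 in normoxia and a negative interaction of -0.92; it lies on chromosome 15. PDHA1, a subunit of pyruvate dehydrogenase on the short arm of the X chromosome, gave 30.2, 34.4 and 35.1 CPM in clone A, against 67.05, 71.02 and 67.9 CPM in parental cells and was as low in normoxia (-1.13). Over the tricarboxylic acid cycle list as a whole 3 of 19 rose and 3 fell, beside 20.5% and 20.9% of all tested genes. None of the list's rises was called without clone A replicate 2 or without clone A replicate 3.

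Few cholesterol genes (4.76%) and many fatty acid genes (60%) were called, beside 41.4% of all tested genes. Of 21 cholesterol genes 1 rose, SQLE (log2 0.28), which was not called without clone A replicate 2 or 3, and the other 20 were not called. The number that fell was 5 with the 6 libraries compared alone, 6 without the TIFM libraries and 2 by DESeq2. Among 15 fatty acid genes 3 rose and 6 fell, beside 20.5% and 20.9% of all tested genes, and 8 fell without clone A replicate 1. The summed level of the list was 7008, 6800 and 6899 CPM in clone A, against 12103, 10915 and 11903 CPM in parental cells. SCD, the stearoyl-CoA desaturase, gave 4264, 3751 and 3840 CPM in clone A, against 8652, 7770 and 8503 CPM in parental cells, a log2 difference of -1.07 (SE 0.14), with -0.51 in normoxia. Its relative SCD5 was higher, at 12.01, 10.98 and 10.7 CPM in clone A, against 4.04, 3.57 and 3.82 CPM in parental cells, a log2 difference of 1.56 (SE 0.11).

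In the stress lists more members fell than rose, beside 20.9% lower and 20.5% higher over all tested genes. Of 20 unfolded protein response genes 8 fell and 1 rose, with 5 falls, a share near that of all tested genes, without clone A replicate 1 or without parental replicate 3; the central chaperone gene HSPA5 was not called (log2 0.10). HERPUD1, of ER-associated degradation, fell by -0.63 in hypoxia and was higher by 0.49 in normoxia. Of 18 NRF2 targets 8 fell and 1 rose, and 6 fell without clone A replicate 1. TXNRD1, thioredoxin reductase, gave 370.1, 523 and 551 CPM in clone A, against 1142, 1075 and 1169 CPM in parental cells, a log2 difference of -1.23 (SE 0.12), and HMOX1, heme oxygenase, gave 24.8, 18.01 and 20.3 CPM in clone A, against 94.3, 86.7 and 113 CPM in parental cells, a log2 difference of -2.22 (SE 0.25). Autophagy and lysosome genes fell for 10 of 18 and the other 8 were not called, and 7 fell without clone A replicate 1. GABARAPL1, an autophagosome protein, gave 22.2, 17.1 and 19.1 CPM in clone A, against 40.8, 44.1 and 38.9 CPM in parental cells, and CTSB, the protease cathepsin B, gave 223, 191 and 201 CPM in clone A, against 335, 331 and 343 CPM in parental cells. In clone B both were higher than in parental cells (log2 0.48 and 0.58).

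Antigen presentation was lower in clone A whatever the oxygen. Of 15 tested MHC class I genes 14 fell in hypoxia, against 20.9% of all tested genes, with a median log2 of -1.15. In normoxia 12 fell, against 15.8%, and the other 3 were not called, with a median of -0.69. A negative interaction was called for 3 members, against 4.04% of all tested genes. HLA-B, a classical class I heavy chain, gave 12.1, 11.3 and 12.4 CPM in clone A, against 68.7, 70.7 and 75.1 CPM in parental cells, a log2 difference of -2.58 (SE 0.18). HLA genes resemble one another and HLA-B shares 18.9% of its exon length, so reads may be split among them. B2M, the light chain of every class I molecule, gave 283, 246 and 262 CPM in clone A, against 519, 575 and 545 CPM in parental cells, a log2 difference of -1.05 (SE 0.10); it lies on chromosome 15. ERAP2, which trims peptides for loading, gave 3.93, 5.11 and 5.39 CPM in clone A, against 44.6, 42.4 and 41.4 CPM in parental cells, a log2 difference of -3.15 (SE 0.15), edgeR adjusted p = 9.3e-15. The remaining member, the chaperone CALR, was not called (-0.33, adjusted p = 0.052) and passed under 10 of the alternatives. TAP1 and TAP2 are listed at 0 in all libraries and were not tested.

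Interferon-stimulated genes fell for 14 of 18 tested members and rose for 1 (IFI27, at 1.76 CPM or less), with a median log2 of -0.76. Over all tested genes 20.9% fell. In normoxia 13 members fell and 1 rose, beside 15.8% and 15.9% of all tested genes. OASL, related to the RNA-sensing oligoadenylate synthetases, gave 0.225, 0.347 and 0.685 CPM in clone A, against 17.1, 15.6 and 15.7 CPM in parental cells, a log2 difference of -5.24 (SE 0.32). GBP4, an interferon-induced GTPase, gave 0, 0.126 and 0.238 CPM in clone A, against 10.6, 10.8 and 9.30 CPM in parental cells. Both were nearly absent from clone A. Among 17 cytokine and NF-kB genes 3 fell and 2 rose, beside 20.9% lower and 20.5% higher over all tested genes. The falls were CCL2, CSF1 and ICAM1 (log2 -1.91), and the rises IL11 and PTGS2. CCL2, which draws monocytes, gave 10.1, 4.35 and 4.73 CPM in clone A, against 515, 574 and 468 CPM in parental cells, a log2 difference of -6.34 (SE 0.64), edgeR adjusted p = 9.0e-09, and -7.70 in normoxia; in clone B it gave 49.5, 47.2 and 73.7 CPM, between clone A and the parental cells. CCL5, a T-cell chemokine outside that list, gave 0.161, 0.0946 and 0.268 CPM in clone A, against 10.3, 11.6 and 14.1 CPM in parental cells. CSF1, a growth factor of macrophages, gave 96.4, 52.5 and 56.02 CPM in clone A, against 346, 352 and 345 CPM in parental cells, with clone A replicate 1 the highest of its group. IL11, a cytokine of the IL6 family, was higher, at 3.70, 8.61 and 8.42 CPM in clone A, against 1.18, 1.26 and 1.41 CPM in parental cells.

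More matrix and adhesion genes fell than rose at both oxygen levels. Of 22 collagen genes 13 fell and 2 rose with a median log2 of -1.11, and 11 fell without clone A replicate 1. Over all tested genes 20.9% were lower and 20.5% higher. In normoxia 9 collagen genes fell and 3 rose, beside 15.8% and 15.9%. COL5A2, of fibrillar collagen V, gave 25.5, 21.1 and 22.2 CPM in clone A, against 471, 452 and 451 CPM in parental cells, a log2 difference of -4.32 (SE 0.12), edgeR adjusted p = 1.0e-18, and -4.61 in normoxia. COL13A1, a transmembrane collagen, was the largest rise of the list, at 19.9, 31.4 and 29.3 CPM in clone A, against 3.09, 3.92 and 2.45 CPM in parental cells. COL1A1, of collagen I, gave 106, 122 and 111 CPM in clone A, against 67.4, 68.05 and 72.2 CPM in parental cells; it was higher in clone A by 0.71 in hypoxia and 1.77 in normoxia, and in clone B gave 632, 716 and 633 CPM. COL1A1 also stood among the fibroblast markers, of which COL1A2, COL3A1, DCN, LUM, PDGFRA, PDGFRB and FAP were not called; a part of other cells in its level was not tested. Of 22 laminin and integrin genes 12 fell and 2 rose, and in normoxia 11 fell and 2 rose. The summed level of this list overlapped in hypoxia, at 4622, 5135 and 5263 CPM in clone A and 5356, 5015 and 5198 CPM in parental cells. In normoxia it was slightly higher in clone A, at 4762, 4885 and 4762 CPM, against 4697, 4482 and 4755 CPM in parental cells. The fallen members included LAMA3 and LAMB3 of the epithelial laminin 332, at log2 values of -4.0 and -3.46 in hypoxia. Both had few counts, with means of 0.303 and 0.115 CPM in clone A, against 4.90 and 1.30 CPM in parental cells. The risen ones in hypoxia were ITGA1 (1.57) and ITGA2 (0.84), which pair with integrin beta 1 to bind collagen.

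More epithelial genes fell than rose. Of 21 tested epithelial and classical pancreatic cancer markers 11 fell and 3 rose in hypoxia, beside 20.9% and 20.5% of all tested genes. The rises were CDX2, EPCAM and AGR2. AGR2 was higher in hypoxia (log2 0.46, a call lost under 2 alternatives) and lower in normoxia (-0.63). In normoxia 13 markers fell and 2 rose, beside 15.8% and 15.9% of all tested genes. CDH1, the adhesion protein E-cadherin, gave 1.84, 2.81 and 1.96 CPM in clone A, against 31.1, 25.4 and 34.6 CPM in parental cells, a log2 difference of -3.78 (SE 0.16), edgeR adjusted p = 1.3e-15; in normoxia it gave 1.33, 1.83 and 1.69 CPM in clone A and 59.6, 58.9 and 61.5 CPM in parental cells, a deeper difference of -5.21. The keratin genes KRT8, KRT18 and KRT19 of simple epithelia had 2045, 1363 and 1392 CPM, 727, 524 and 557 CPM and 384, 287 and 275 CPM in clone A, against 4321, 4783 and 4398 CPM, 1743, 1917 and 1757 CPM and 883, 918 and 922 CPM in parental cells. Clone A replicate 1 was the highest of its group for all 3. In clone B KRT8 and KRT18 were not called against the parental cells (log2 0.14 and 0.26), and the clones differed, with clone B minus clone A values of 1.63 and 1.84. ELF3, an epithelial transcription factor, gave 0.258, 0.126 and 0.208 CPM in clone A, against 20.6, 16.3 and 20.5 CPM in parental cells, with 18.5% of its exon length shared. EPCAM, an epithelial surface antigen, was higher, at 26.8, 35.1 and 34.6 CPM in clone A, against 20.5, 21.4 and 22.5 CPM in parental cells, and SOX9, a transcription factor of ductal cells, gave 317, 219 and 245 CPM in clone A, against 277, 279 and 240.2 CPM in parental cells, with overlap.

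The fall of many epithelial transcripts did not come with a general rise of mesenchymal ones. Of 16 tested mesenchymal genes 1 rose and 5 fell, beside 20.5% and 20.9% of all tested genes. VIM, the intermediate filament vimentin, gave 3999, 5025 and 5282 CPM in clone A, against 4330, 4312 and 4443 CPM in parental cells, which overlapped, and SPARC, a secreted matrix protein, gave 12.6, 16.8 and 13.3 CPM in clone A, against 67.5, 61.01 and 78.2 CPM in parental cells, a log2 difference of -2.28 (SE 0.19). AXL, a receptor kinase, was the member that rose, at 127, 287 and 274 CPM in clone A, against 135, 124 and 143 CPM in parental cells. Its clone A replicate 1 lay within the parental range and the other two far above it.

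Growth factor and BMP genes split. Of 26 growth factor ligands and receptors 7 rose and 13 fell, beside 20.5% higher and 20.9% lower over all tested genes. TGFA, a ligand of the EGF receptor, gave 0.386, 0.442 and 0.149 CPM in clone A, against 11.4, 10.1 and 11.1 CPM in parental cells, and KIT, the stem cell factor receptor, gave 0.161, 0.568 and 0.387 CPM in clone A, against 9.79, 10.5 and 8.77 CPM in parental cells; both were nearly absent from clone A. ERBB2, an orphan receptor of the EGF receptor family, fell by a log2 of -2.11, and NRG1, a ligand of its partners, rose, at 115, 106 and 113 CPM in clone A, against 37.3, 39.2 and 34.9 CPM in parental cells. Of 23 TGF-beta and BMP genes 7 rose and 11 fell, and 8 fell without clone A replicate 1. BMP7 gave 0.161, 0.189 and 0.179 CPM in clone A, against 5.17, 5.30 and 4.86 CPM in parental cells, and BMP6, of the same ligand family, gave 108, 116 and 119.6 CPM in clone A, against 25.7, 26.04 and 25.2 CPM in parental cells, a log2 difference of 2.16 (SE 0.11). TGFBR3, a co-receptor of TGF-beta, gave 2.51, 2.18 and 2.08 CPM in clone A, against 43.6, 42.4 and 41.7 CPM in parental cells, and LTBP1, which stores latent TGF-beta in the matrix, gave 63.8, 60.3 and 60.8 CPM in clone A, against 13.7, 12.9 and 14.3 CPM in parental cells. GREM1, a secreted BMP antagonist on chromosome 15, had one of the most positive interactions (1.80 (SE 0.50)), at 4.22, 6.02 and 10.7 CPM in clone A, against 2.76, 2.66 and 4.50 CPM in parental cells; it lost its hypoxia call without clone A replicate 3 or parental replicate 1 or 2, and its interaction call without those or some normoxia libraries. Of 20 clock and PAS genes 4 rose and 6 fell, near the shares of all tested genes (20.5% and 20.9%). BHLHE40, a transcriptional repressor and HIF target, gave 77.6, 72.02 and 80.2 CPM in clone A, against 223, 214 and 225 CPM in parental cells, and NPAS2, a clock factor, gave 252, 179.9 and 198 CPM in clone A, against 111, 106 and 97.5 CPM in parental cells.

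**Figure D4:**
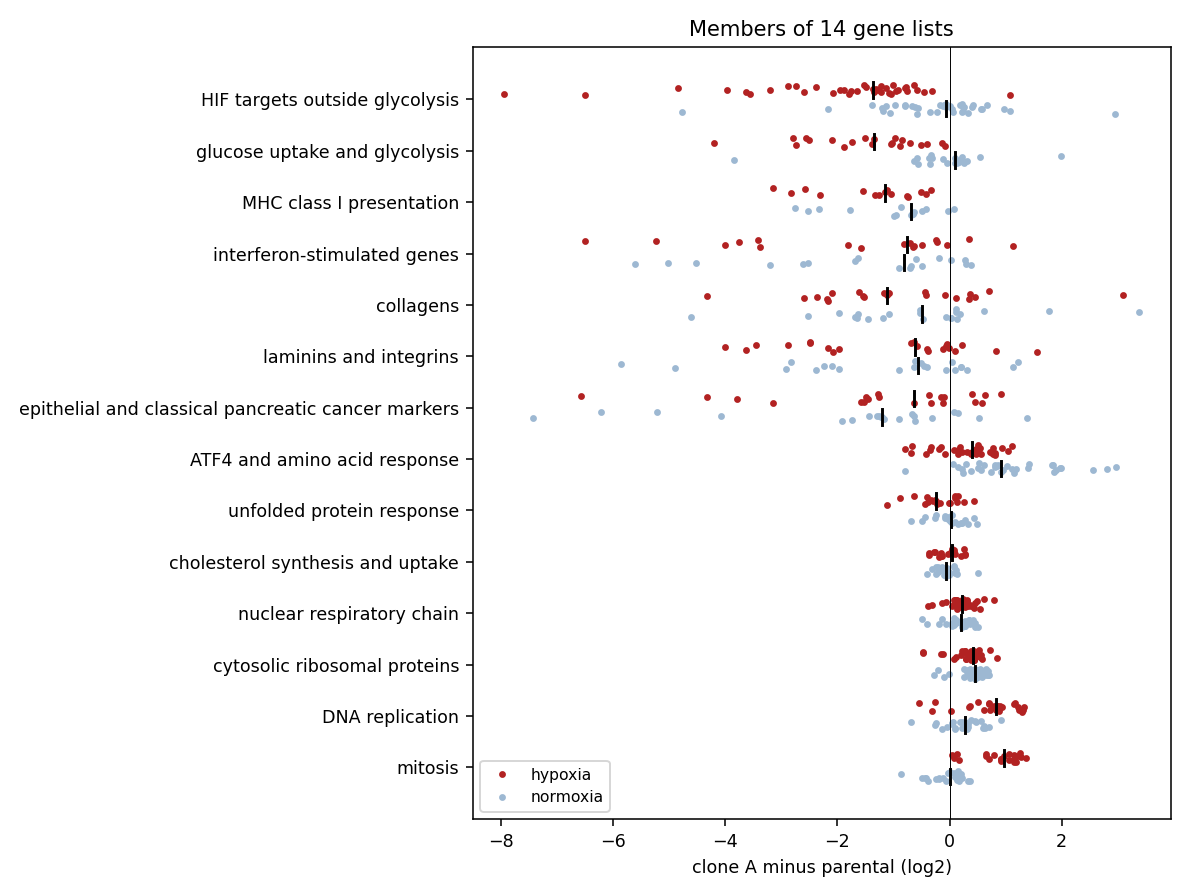
Log2 difference clone A minus parental (x axis) of every tested member of 14 gene lists, in hypoxia (red) and normoxia (blue); the short black lines are medians. HIF target and glycolysis genes lie left of 0 in hypoxia (medians -1.37 and -1.35) and around it in normoxia, the median of mitosis genes lies right of 0 in hypoxia (0.97) and near it in normoxia (0.01), and MHC class I genes lie left at both oxygen levels.

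Largest changes of single genes were mostly shared with normoxia and with clone B. The 12 steepest falls among genes at 5 CPM or more were UPK1B, KCNK3, COL26A1, ZNF704, HDGFL3, ELF3, EGLN3, GDA, CCL2, GBP4, ABCG2 and CCL5, with log2 values of -10.31 to -6.06, and only EGLN3 of them had an interaction call. All 12 were also called lower in normoxia, and all 12 were lower in clone B. UPK1B, a urothelial membrane protein, had 1 count in clone A over its 3 libraries and 2078 in the parental ones, whose levels were 18.6, 17.6 and 17.9 CPM; the ratio of parental cells over clone A was 1738 with a 95% exact counting interval of 312 to 68694. KCNK3, a potassium channel, gave 0.419, 0 and 0.268 CPM in clone A, against 38.999, 40.9 and 38.4 CPM in parental cells, with clone A replicate 1 the highest of its group (log2 -7.41, and -8.12 without it). ABCG2, a drug efflux pump, gave 0.998, 1.39 and 1.19 CPM in clone A, against 85.8, 90.3 and 86.02 CPM in parental cells, a log2 difference of -6.19 (SE 0.21). HDGFL3 lies on chromosome 15. Without clone A replicate 3 the log2 values of GDA and GBP4 were -7.20 and -7.25, against -6.37 and -6.32 with it, and without clone A replicate 2 that of ZNF704 was -8.02, against -6.98, and that of UPK1B -12.19, against -10.31.

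The 12 largest rises were SLC6A15, PARM1, BCAT1, NKX6-2, TRHDE, KLHL13, DOCK3, SEL1L3, HTR7, TNIK, CA2 and KIF26B, with log2 values of 6.98 to 3.41. All 12 were higher in normoxia too. SLC6A15, a transporter of branched-chain and other neutral amino acids, gave 21.7, 25.5 and 23.2 CPM in clone A, against 0.201, 0.251 and 0.0843 CPM in parental cells, a log2 difference of 6.98 (SE 0.28); in clone B it gave 1.32, 1.37 and 1.43 CPM. TRHDE, which degrades thyrotropin-releasing hormone, gave 102, 112 and 114 CPM in clone A, against 6.002, 5.73 and 5.73 CPM in parental cells, and TNIK, a kinase of Wnt signalling, gave 72.7, 79.5 and 76.3 CPM in clone A, against 7.16, 6.59 and 7.11 CPM in parental cells. In clone B TRHDE gave 98.2, 91.7 and 81.6 CPM and TNIK 83.4, 79.8 and 80.7 CPM. KLHL13, an adaptor of a ubiquitin ligase, gave 52.5, 39.8 and 42.7 CPM in clone A, against 2.64, 2.99 and 2.81 CPM in parental cells, and it was lower in clone B than in parental cells (log2 -1.24).

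Beside clone A, clone B differed from the parental cells at 5006 genes in hypoxia (35.9%), and the clones differed from each other at 3506 (25.1%). Both clones were compared with the same parental libraries, so their calls are not independent and are given side by side. In clone B 33 of 39 HIF targets, 19 of 21 glycolysis genes and 13 of 15 MHC class I genes were lower than in parental cells (19% of all tested genes were), and the rest of each list were not called. In mitosis clone B had 10 higher and 3 lower (16.9% of all tested genes were higher), and 19 of the 23 genes were lower in clone B than in clone A by the test between the clones, against 12.2% lower and 12.9% higher over all tested genes. Cytosolic ribosomal proteins had 1 higher and 3 lower in clone B. There were 159 genes called in opposite directions in the clones and also called between them. Among these HIVEP3, a zinc finger factor, gave 1.48, 1.07 and 1.34 CPM in clone A and 40.2, 38.6 and 41.6 CPM in clone B, against 25.7, 23.7 and 26.03 CPM in parental cells. LIPG, endothelial lipase, gave 4.28, 6.34 and 7.26 CPM in clone A and 131, 111 and 96.9 CPM in clone B, against 83.7, 78.2 and 92.2 CPM in parental cells. NTRK2, the receptor of the neurotrophin BDNF, gave 16.2, 16.1 and 17.6 CPM in clone A and 1.24, 0.744 and 1.02 CPM in clone B, against 2.18, 1.89 and 2.11 CPM in parental cells. The remaining ones named by size were KLHL13, ARHGAP40 and SLC66A1L.

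Differences also followed chromosomes. Of 446 tested genes on chromosome 15, 274 (61.4%) were lower in clone A in hypoxia and 17 (3.81%) were higher, with a median log2 of -0.55; the median was -0.53 in normoxia and -0.66 in clone B in hypoxia. All 9 bins of 10 Mb with tested genes on this chromosome had negative medians, between -0.73 and -0.36. On the X chromosome the 150 genes that start below 50 Mb had a median of -0.83 in hypoxia and -0.81 in normoxia, with 100 lower and 5 higher, and -0.18 in clone B. The 325 genes beyond 50 Mb had a median of -0.01, with 65 higher and 84 lower. Most genes named above on chromosome 15 or on the X chromosome below 50 Mb (ARNT2, B2M, IDH2, HDGFL3, RPLP1, PDK3, PDHA1 and POLA1 among them) were lower, as was the median of their region, and how much of each difference belongs to the region was not tested. GREM1 on chromosome 15 was higher, and CCNB2 and KIF23 were not called. The number of DNA copies was not measured here.

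**Figure D5:**
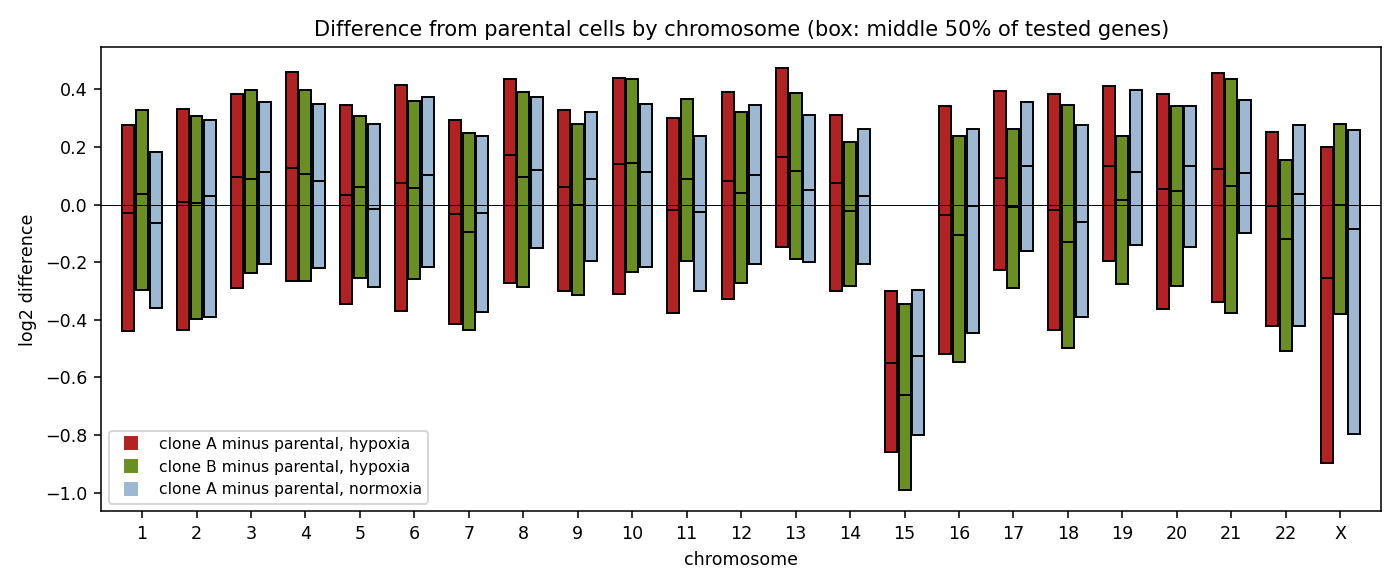
Log2 difference from parental cells (y axis) of the tested genes on each chromosome (x axis) for clone A in hypoxia (red), clone B in hypoxia (green) and clone A in normoxia (blue); boxes span the middle 50% of genes and the line inside is the median. Chromosome 15 is low in all 3 comparisons, with medians of -0.55, -0.66 and -0.53. The median of X is -0.26 in clone A in hypoxia, -0.08 in clone A in normoxia and 0 in clone B.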

How the data were processed

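The authors deposited 1 table of raw read counts per gene for 27 polyA RNA-seq libraries in 9 groups of 3; per the submitters' processing notes, HISAT2, featureCounts and GRCh38 were used (their versions, the annotation and the strand setting: not given in the sources used here, so a gene and an overlapping or antisense neighbour may share reads). Groups come from the sample labels. Of 21487 identifiers, 21479 received a symbol and 21409 a place on GENCODE v29 (GRCh38). Of 679 list members in the table, 32 are listed at 0 in all libraries, among them genes that every cell uses (SDHA, RPL15), so a listing at 0 is not read as absence.

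All libraries went into 1 fit with edgeR 4.0.16 (R 4.3.3): filterByExpr by group (minimum count 10, minimum total 15), TMM factors (1.01 to 1.06 in the 6 libraries compared), 1 coefficient per group, robust quasi-likelihood F tests, and Benjamini-Hochberg adjusted p under 0.05 over 13943 genes for each of 5 contrasts. The hypoxia contrast was tried on simulated counts in which few genes changed, all of them in clone A hypoxia. That trial does not cover broad change or the interaction. Standard errors are the absolute log2 difference over the square root of F. Counting intervals are at 95% and cover counting error only, since the reads carry no molecular identifiers. Alternatives were other library sets, RLE and upper-quartile scaling, DESeq2 1.42.0, other filters, a replicate block and leaving out each replicate; a replicate block within the compared libraries was added after seeing the data.

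The gene lists, named genes and comparisons were chosen with earlier results of these data known. Named genes were drawn from the 12 largest called rises and 12 largest called falls without overlap at 5 CPM or more, up to 3 rises and 3 falls per list, the 6 most positive and 6 most negative interactions at 5 CPM or more, up to 6 genes with opposite calls in the clones, and 17 fixed genes. List members outside this rule, such as GAPDH, PGK1, LDHA, MKI67, PLK1, HIF1AN, KRT8 and the uncalled members, were chosen after their values were seen. Percentages of shared exon length come from GENCODE v29. Exact zeros, overlaps and windows are descriptions.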

Additional observations from a re-analysis of the deposited data

Results flagged for a closer look

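Genes were set apart here when the clone A to parental difference itself differed between hypoxia and normoxia, or between the clones with opposite signs, by the edgeR tests described. The first test called 869 genes. The genes given here are among those named in the text. Values are log2, hypoxia minus normoxia of the difference clone A minus parental, and positive values mean a difference that was more positive in hypoxia.

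Among HIF pathway genes the values were 1.33 for HIF1A, -1.10 for EPAS1 and -1.72 for EGLN3. HIF targets had -3.51 for PPP1R3C, -3.59 for CXCR4, -3.31 for ANGPTL4, -2.68 for STC1, -2.44 for NDRG1 and -2.20 for VEGFA. Smaller ones were -1.89 for NDUFA4L2, -1.84 for LOX, -1.58 for BNIP3, -1.47 for ADM, -1.13 for P4HA1 and -0.73 for BHLHE40. In glucose use they were -3.38 for HK2, -2.47 for SLC2A1, -2.42 for PFKFB4, -2.14 for PDK1, -1.75 for PGK1, -1.10 for LDHA and -0.99 for GAPDH. AHR targets had -1.53 for CYP1B1 and -1.0 for TIPARP.

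In the ATF4 response the values were -1.92 for PHGDH, -1.80 for ASNS, -1.69 for VLDLR, -1.64 for CTH, -0.91 for ATF4 and -0.85 for SLC7A5. Other metabolic and stress genes had -1.29 for HMOX1, -1.13 for HERPUD1, -0.92 for IDH2, -0.91 for BCAT1 and -0.82 for TXNRD1. Antigen presentation had -0.82 for ERAP2 and -0.81 for HLA-B, the last not called in 10 of the fits that leave out a library. Remaining negative values were -3.24 for GNG4, -3.20 for CEBPD, -2.86 for FAM13A, -1.06 for COL1A1 and -4.40 for ARHGAP40, which had 1 count over the clone A hypoxia libraries and 20 over the parental ones (parental over clone A ratio 16.7, 95% exact counting interval 2.68 to 693). The ARHGAP40 call was lost in 9 of the fits that leave out a library, and its value was -6.28 without clone A hypoxia replicate 2 and -5.13 without parental normoxia replicate 1; CEBPD had -4.38 without clone A hypoxia replicate 1. Alternatives that ended the call numbered 4 for COL1A1, 4 for HMOX1, 3 for LOX, 2 for BHLHE40, 2 for SLC7A5 and 1 for ERAP2.

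Positive values stood in cell division, with 1.55 for CENPE, 1.27 for TOP2A, 1.17 for PLK1, 1.16 for AURKA, 1.10 for MKI67, 1.03 for KIF23 and 0.74 for PCNA. Further positive values were 1.85 for LAMA3, 1.80 for GREM1, 1.42 for CDH1, 1.18 for SPARC, 0.96 for LIPG, 2.83 for LIMCH1, 1.69 for C2CD4C, 1.56 for TM4SF18 and 1.45 for RTKN2. Alternatives that ended the call numbered 6 for LAMA3, 6 for GREM1, 3 for MKI67 and 2 for LIPG.

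Opposite calls in the clones with a called clone B minus clone A difference numbered 159. Among the genes named in the text these differences were 6.04 for ARHGAP40, 4.95 for HIVEP3, 4.24 for LIPG, 3.69 for SLC66A1L, 1.56 for GABARAPL1 and 1.29 for CTSB on the log2 scale, and -5.24 for KLHL13, -4.05 for NTRK2 and -2.01 for VLDLR.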

How the results depend on the processing

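The number of genes called in hypoxia stayed within 1.5 times of 5770 under every alternative run, from 4743 to 7824: with the 6 libraries compared alone it was 7291, and leaving out 1 library gave 4743 to 5519. The interaction count did not stay. It was 2656 with only the libraries compared, 2952 without the hypoxia TIFM libraries and 2430 with only the libraries compared and a replicate block, against 869 as reported, and leaving out 1 library gave 613 to 1005; the cause was not tested. The clone B to clone A count was 5930 without the TIFM libraries, against 3506. Same-numbered replicates of clone A and parental cells in hypoxia had correlations of -0.08 to 0.03, so the numbers do not pair them, and a replicate block over all libraries gave 5907. Of 271 results of single genes, 233 kept their side of the threshold under the alternatives run, and no called one changed sign; over all gene and setting pairs 120 lost a call and 19 gained one. Clone A is 1 clone with 3 libraries, of which replicate 1 stands apart. Folds of genes with few counts in a group, such as UPK1B with 1 count in clone A, are set loosely at this depth.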

Other observations

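Genes with the most positive interaction among those at 5 CPM or more were LIMCH1, GREM1, C2CD4C, TM4SF18, CENPE and RTKN2. LIMCH1, an actin-associated protein, was lower in clone A at both oxygen levels (log2 -2.87 in hypoxia and -5.70 in normoxia), so its positive interaction of 2.83 marks a smaller deficit in hypoxia. RTKN2 rose by 1.70 in hypoxia and had 0.24 and no call in normoxia, and C2CD4C rose by 2.16 in hypoxia. TM4SF18, a tetraspan membrane protein, was higher in hypoxia (0.85) and lower in normoxia (-0.72).

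Of 8 tested metallothionein and zinc genes 2 rose and 1 fell, beside 20.5% and 20.9% of all tested genes. The rises were MT1E and MT2A, and the fall was the zinc exporter SLC30A1 (log2 -1.13). Neither rise was called without clone A replicate 2 or without parental replicate 1, and that of MT2A was not called without clone A replicate 3. The 4 basal-like markers that were high enough to be tested, of 14 listed, did not pass the threshold in the fit reported.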
